A study of Saccharomyces cerevisiae with 16 samples.

Results

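The genes described are 66 of the 7126 in the deposited tables, chosen by name as the nuclear genes for mitochondrial ribosomal proteins of *S. cerevisiae*. The rule took every gene whose short name is MRPL, MRPS, MRP or RSM followed by a number. The 34 MRPL genes form the large set, named for the large subunit, and the 9 MRPS, 12 MRP and 11 RSM genes form the remaining set of 32. The names follow the subunits closely but not fully. *MRP7*, *MRP20* and *MRP49* code for proteins of the large subunit, and *MRP8* codes for a protein of unknown role that is not known to be part of the ribosome, so 37 of the genes are known for the large subunit and 28 for the small one. The experiment compared wild-type (WT) cells of the laboratory strain BY4741 with *lsm1∆* cells, which carry the same auxotrophic background and lack *LSM1*, grown in rich medium (YPD) without hydroxyurea (HU) or for 1, 2 or 4 h with 200 mM of it. HU is an inhibitor of ribonucleotide reductase and starves DNA replication of nucleotides. There were 16 libraries, 2 for each of the 8 conditions. The sources do not say how many independent isolates of the deletion strain were used. The duplicates are called technical in the methods, so each p-value measures the spread between these libraries, which may not include the spread between cultures.

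Mitochondrial ribosomes translate the few proteins that the mitochondrial genome encodes, nearly all of them subunits of the respiratory chain and the ATP synthase. Except for Var1, all their proteins are made in the cytosol from nuclear mRNAs and imported. Many of these mRNAs carry a binding site for Puf3, a Pumilio-family protein, in the 3′ untranslated region, and Puf3 is known for directing them to decay or to translation near mitochondria. Lsm1 is a subunit of the Lsm1-7 complex, which binds the deadenylated 3′ end of mRNAs together with Pat1, promotes decapping in the cytoplasm and is a component of P-bodies.

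All but a pair of the genes had a match to the Puf3 motif just after their stop codon, a feature the naming rule did not use. The motif was TGTANATA, with N for any base, and it was searched on the sense strand in the 200 bases after the stop codon of the R64 reference genome. It was found for 64 of the 66 genes (97.0%), against 841 of all 5904 genes scanned (14.2%) and 777 of the 5838 genes that are not among the 66 (13.3%). All 34 genes of the large set had a match, and the 2 genes without one were *MRP8* and *RSM22*. In the first 100 bases a match was found for 59 of the 66 genes (89.4%) and for 10.3% of all genes. With either strand allowed, 65 genes (98.5%) and 24.5% of all genes had one. There were 78 matches in total, with a median distance of 54.5 bases from the stop codon to the first base and a range of 8 to 165. The variable base was A in 36 matches, T in 24, C in 17 and G in 1, and 13 genes had more than 1 match, among them *RSM19* with 3.

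Sites are shown for genes on which the results turn, in 30 bases of the sense strand with the motif in capitals (build R64, the same assembly as sacCer3). *MRPL27* and *RSM18* had the largest difference between strains in their sets, *MRPL50* and *MRPL13* are large-set genes with a large response to HU that differed between strains, and *MRPS35* is the same in the remaining set. *MRPL39* is the gene with the highest level, *MRPL16* had the smallest strain ratio of the large set, and *MRPL3* holds the only match with G. The sites lie at chrII:768698-768727 (plus strand, *MRPL27*), chrV:253886-253915 (minus strand, *RSM18*), chrXIV:669719-669748 (minus strand, *MRPL50*), chrXI:450358-450387 (minus strand, *MRPL13*), chrVII:830212-830241 (plus strand, *MRPS35*), chrXIII:251207-251236 (minus strand, *MRPL39*), chrII:146900-146929 (plus strand, *MRPL16*) and chrXIII:323054-323083 (plus strand, *MRPL3*).
MRPL27: ttcaatatgcgTGTAAATActagttttcga
RSM18: atagttctgtcTGTAAATAtacaatatgta
MRPL50: gcgtacaatctTGTATATAggcaacatcgc
MRPL13: ttttaatatccTGTACATAtatatactctt
MRPS35: ccattattactTGTACATAaaatattctac
MRPL39: ttcatttatccTGTAAATAagtaatggata
MRPL16: ccatgtatacaTGTATATAactattgaaaa
MRPL3: gtttgccatttTGTAGATAgagaactcctt
A cytosine 2 bases before the motif, which Puf3 is known to bind in a pocket of its own, preceded 51 of the 78 matches of these genes (65.4%) and 205 of the 841 matches of the other genes (24.4%). This base was looked at after the sites had been seen. Of the sites shown, those of *RSM18* and *MRPL3* lack it and the others have it.

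**Figure D1:**
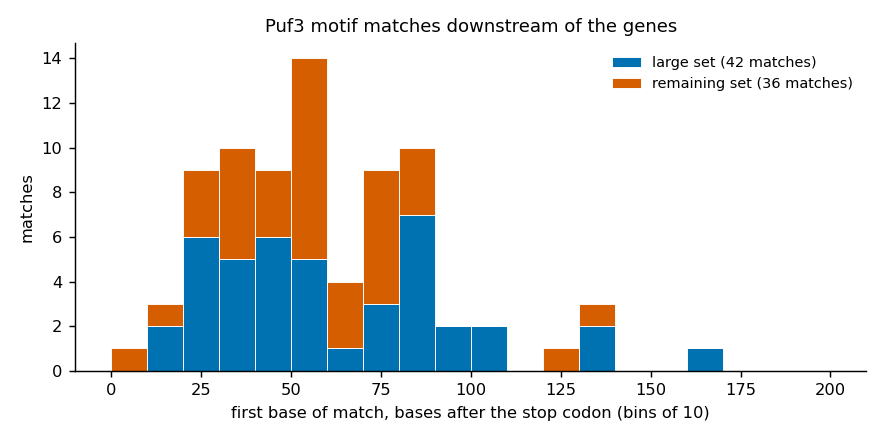
Distance from the stop codon to the first base of each Puf3 motif match (bases, bins of 10) for the 78 matches downstream of the genes, stacked by set. Matches are counted on the sense strand within 200 bases, and 69 of the 78 lie within the first 100 bases.

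The values were FPKM, fragments scaled to gene length and to the mapped fragments of the library as Cufflinks estimated them. The scaling is meant to make genes and libraries comparable, and how well it does so for short genes was not tested. An FPKM is a share of a library's RNA, so a higher value cannot be told apart from a smaller amount of all other RNA in the cell. *LSM1* was between 111 and 181 FPKM in the 8 WT libraries and at most 0.761 FPKM in the 8 *lsm1∆* libraries. No read counts were used, but whole-read steps in 110 low genes placed the depth of the libraries within 0.899 and 1.10 of their average. All 66 genes passed the filter on low values, since their lowest value in any library was 5.78 FPKM, and 6977 genes were tested in all. A gene is termed called when limma on log2(FPKM + 1) gave it a Benjamini-Hochberg adjusted p-value under 0.05. Because the median gene itself shifted between conditions, counts are also given after centring, in which the median log2 value of a library is taken from its values.

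The levels of the genes spanned a wide range although most of their products are built into the same particle in equal number. *MRPL39*, the counterpart of a bacterial large-subunit protein, was highest with a mean of 371 FPKM over the 16 libraries, followed by *MRP8* (288 FPKM), *MRPL33* (288 FPKM), *MRPS12* (271 FPKM), which codes for the small-subunit protein at the decoding site, and *MRP10* (210 FPKM). *MRPL44*, for a protein with no bacterial counterpart, was the third of the large set with 189 FPKM. The lowest were *MRPL38* (11.8 FPKM), *RSM22* (24.3 FPKM), *MRPL4* (30.9 FPKM) and *RSM23* (36.8 FPKM). Short genes stood at the top, and the level per length correlated with gene length at a Spearman rho of -0.75 across the 66 genes, which are not independent replicates. Whether the length scaling contributes to this order was not tested. In untreated WT cells the median was 48.9 FPKM in the large set and 54.2 FPKM in the remaining set, and the quartiles of the 66 genes were 36.6 and 70.0 FPKM. The order of the genes changed little between conditions, with a rho between 0.92 and 0.99 over all pairs of conditions.

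The order by the mean of 16 libraries does not hold for all neighbours at the top in each condition. *MRP8* and *MRPL33* had like means but changed places with HU. In untreated WT *MRP8* was 123 and 100.2 FPKM against 176 and 169 FPKM for *MRPL33*, and at 4 h 211 and 195 against 145 and 156 FPKM. In *lsm1∆* *MRP8* was 207 and 162 against 334 and 305 FPKM untreated, and 491 and 494 against 464 and 457 FPKM at 4 h. *MRPL39* lay above *MRPL33* in each of the 16 libraries, with 251 and 278 FPKM against 169 and 176 FPKM in untreated WT. *MRPL38* was the lowest of the 66 genes in every library, and 366 of its 417 bases (87.8%) overlap YKL169C, whose mean was 108 FPKM. The libraries hold no strand, so reads of overlapping genes cannot be told apart. The same limit touches *MRPL51* (76.4% of the gene overlaps YPR099C), *RSM7* (42.6%, YJR114W), *MRPL9* (37.4%, YGR219W), *MRPL19* (23.7%, YNL184C) and, by 2 bases, *MRP4*.

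**Figure D2:**
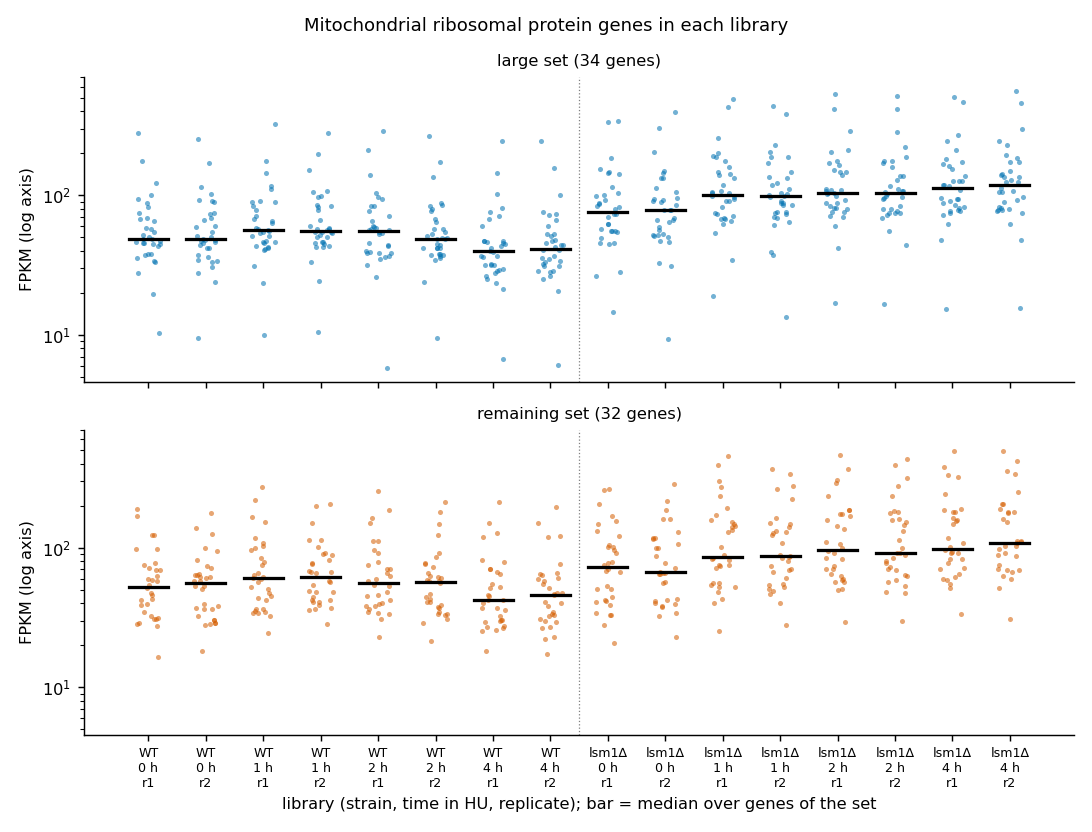
FPKM (log axis) of each gene in each of the 16 libraries, large set above and remaining set below, with a bar at the median of the set in that library. The medians of the 66 genes lie between 41.1 and 57.5 FPKM in the 8 WT libraries and between 70.6 and 111 FPKM in the 8 *lsm1∆* libraries.

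The first comparison asked how loss of Lsm1 bears on these mRNAs without and with HU. Already in untreated cells 56 of the 66 genes had a higher level in *lsm1∆* and none a lower one, against 22.2% of all genes called higher and 6.32% called lower. None of the 66 had a log2 ratio below 0, against 2407 of all 6977 genes tested. The median of their log2 ratios was 0.50, a 1.42-fold higher level, and the median of all genes tested was 0.13. The largest ratio was that of *MRPS8*, for a small-subunit protein with a bacterial counterpart. The WT libraries had 58.5 and 60.8 FPKM and the *lsm1∆* libraries 122 and 115 FPKM, a log2 ratio of 0.98 ± 0.09 (SE, adjusted p = 0.00015 by limma). The 10 genes that were not called were *MRPL24*, *MRPL25*, *MRPL38*, *MRPS5*, *MRPS9*, *MRPS17*, *MRPS35*, *MRP20*, *RSM23* and *RSM24*. After centring, 48 genes were called higher (16.3% of all genes).

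The difference was wider at each later time. At 1 h of HU 62 of the 66 genes were higher in *lsm1∆* (23.2% of all genes) with a median log2 ratio of 0.67, while the median of all genes was 0.04. *MRPL38*, *MRP20*, *RSM22* and *RSM23* were not called. At 2 h and at 4 h all 66 genes were higher, against 32% and 49.8% of all genes. Their medians were 0.97 and 1.35 on the log2 scale, the latter a 2.54-fold higher level, and those of all genes were 0.17 and 0.37. No gene was called lower at any of the 4 times by limma, where 13.8%, 7.75% and 6.29% of all genes were called lower at 1, 2 and 4 h, and none was lower at an unadjusted p-value under 0.05 either. In each of the 66 genes both *lsm1∆* libraries lay above both WT libraries at 2 h and at 4 h, which was so for 51.9% and 66.3% of all genes. The number with at least a 2-fold higher level was 0 in untreated cells, 9 at 1 h, 28 at 2 h and 62 at 4 h, against 3.45%, 4.84%, 4.86% and 11.7% of all genes. After centring, 61, 65 and 66 genes were called higher at 1, 2 and 4 h (23.2%, 20.6% and 21.9% of all genes), with medians of 0.67, 0.80 and 0.92. In a fit of only the 4 libraries compared, 28 genes were called untreated and 29 at 1 h, but all 66 at 2 h and at 4 h, against 7.77%, 4.47%, 28.3% and 50.4% of all genes.

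**Figure D3:**
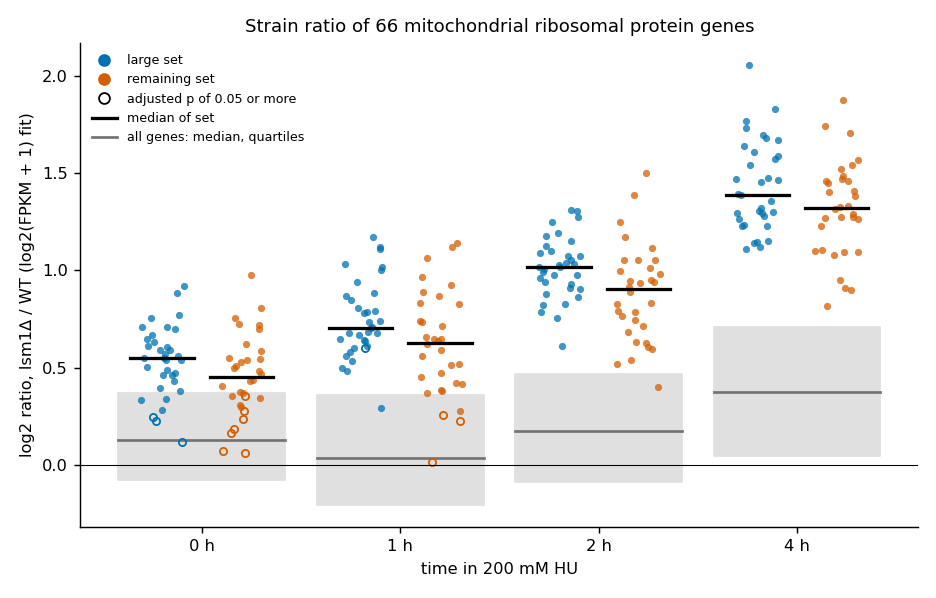
Log2 ratio of *lsm1∆* to WT for each of the 66 genes (points) at 0, 1, 2 and 4 h of HU, by set, with open points for genes that were not called. The black bars are the medians of the sets, which go from 0.55 and 0.45 untreated to 1.39 and 1.32 at 4 h, and the grey boxes give the quartiles of all 6977 genes tested around their median line.

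At 4 h *MRPL27*, for a large-subunit protein found only in mitochondria, had the largest ratio of the 66 genes. Its level was 36.0 and 36.9 FPKM in the WT libraries against 162 and 149 FPKM in *lsm1∆*, so the strains do not overlap. The ratio was 4.17-fold (log2 ratio 2.06 ± 0.10, SE, adjusted p = 5.7e-07 by limma). The next in the large set were *MRPL51* (log2 ratio 1.83) and *MRPL50* (1.77), the latter for a protein with a bacterial counterpart. In the remaining set *RSM18*, for a small-subunit protein with a bacterial counterpart, led with 66.7 and 65.9 FPKM in WT against 241 and 252 FPKM in *lsm1∆*. Its log2 ratio was 1.88 ± 0.08 (SE, adjusted p = 3.3e-07 by limma), followed by *MRP21* (1.75) and *MRPS8* (1.71). The genes with the smallest ratios were still higher in *lsm1∆*. In the large set these were *MRPL16*, for a protein near the tRNA-binding centre of the subunit (1.11), *MRPL39* (1.12) and *MRPL4* (1.14), and in the remaining set *RSM22* (0.81), *RSM7* (0.90) and *RSM23* (0.91). *MRPL39*, the most abundant, went from 243 and 245 FPKM in WT to 506 and 558 FPKM in *lsm1∆*. Across the 66 genes the ratio at 4 h correlated with the mean level over the 16 libraries at a Spearman rho of 0.45. That mean includes the libraries of the ratio, so the values are partly shared. With gene length the ratio at 4 h correlated at -0.32, and the ratio in untreated cells, from other libraries, correlated with that at 4 h at 0.65.

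The large set had the higher median ratio at each time, by an amount small beside the spread within the sets. The medians of the large and the remaining set were 0.55 and 0.45 untreated, 0.71 and 0.63 at 1 h, 1.02 and 0.90 at 2 h, and 1.39 and 1.32 at 4 h, while the ratios at 4 h ranged from 1.11 to 2.06 in the large set and from 0.81 to 1.88 in the remaining set. When the genes were grouped by the subunit their proteins belong to, the median log2 ratios of the large and the small subunit were 0.54 and 0.46 untreated, 0.70 and 0.61 at 1 h, 1.01 and 0.93 at 2 h, and 1.36 for both at 4 h. At 4 h the 14 large-subunit genes for proteins found only in mitochondria had a median fold of 2.85 and the 23 with a bacterial counterpart 2.48. In the small subunit the order was the other way, 2.41 for the 11 mitochondria-specific proteins and 2.74 for the 17 with a bacterial counterpart. *MRP7*, *MRP20* and *MRP49*, the large-subunit genes within the remaining set, had log2 ratios of 1.32, 1.11 and 1.27. The bacterial counterpart of the product of *MRP20* lies at the exit of the peptide tunnel.

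The next comparison followed the genes through HU within each strain. In WT the response was slight and, on the deposited scale, changed direction. At 1 h 30 of the 66 genes were higher than in untreated cells and none was lower by limma, nor at an unadjusted p-value under 0.05, against 36% of all genes called higher and 8.36% called lower. Their median log2 change of 0.23 was close to that of all genes (0.22), and after centring 3 genes were higher (14.6% of all genes) and 5 lower (17.6%). Without replicate 2 of untreated WT or without replicate 2 of WT at 1 h, 18 genes were called higher. In a fit of only the 4 libraries compared 1 was, against 11.7% of all genes. At 2 h 8 genes were higher and 1, *MRPL8*, was lower, against 31.1% and 11.9% of all genes. Without replicate 1 of untreated WT these were 4 and 0, and without replicate 1 of WT at 2 h they were 2 and 2, while without replicate 2 at 2 h there were 2 lower. After centring 1 gene was higher (18.3% of all genes) and 14 were lower (20.5%).

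At 4 h 31 of the 66 genes were lower in WT than in untreated cells, against 26% of all genes, and 1 was higher, against 22%. After centring there were 27 lower (24.7% of all genes). The median log2 change was -0.25, and it was -0.32 in the large set, where 32 of 34 genes were below 0 and 20 were called lower, and -0.19 in the remaining set, where 27 of 32 were below 0 and 11 were called. Of all 6977 genes tested 3634 were below 0. The largest fall was that of *MRPL20*, for a mitochondria-specific large-subunit protein, from 74.2 FPKM in both untreated libraries to 45.0 and 47.6 FPKM, a log2 change of -0.67 ± 0.10 (SE, adjusted p = 0.00031 by limma). *MRPL8*, for the counterpart of a bacterial protein at the tunnel exit, fell from 45.9 and 46.0 to 29.1 and 28.6 FPKM (log2 change -0.65). *MRPL50* followed with -0.61, and in the remaining set *MRP2* with -0.54 and *RSM26* and *MRPS9* with -0.44 each. *MRP2* was not called without replicate 1 (-0.52) or replicate 2 (-0.57) of untreated WT or without replicate 2 at 4 h (-0.43). For 54 of the 66 genes the WT mean was highest at 1 h, and for none was it highest at 4 h. The median log2 change of all genes in WT was also highest at 1 h, with 0.22 against 0.16 at 2 h and -0.03 at 4 h. *MRPL36* (log2 change 0.10), *MRPL16* (0.0037) and *MRP20* (0.14) had values above 0 at 4 h and were not called.

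In *lsm1∆* cells the genes moved up and stayed up. At 1, 2 and 4 h 57, 61 and 61 of the 66 genes were higher than in untreated *lsm1∆* cells, against 25%, 38.6% and 43.6% of all genes called higher. None was called lower by limma or lower at an unadjusted p-value under 0.05, while 9.4%, 10.1% and 14.7% of all genes were called lower. The median log2 changes were 0.41, 0.51 and 0.62, and those of all genes were 0.14, 0.23 and 0.27. For 51 of the 66 genes the mean was highest at 4 h, the time at which the median change of all genes was also largest. After centring 30, 29 and 39 genes were higher (13.9%, 18.9% and 23.1% of all genes), and *MRPL8* was lower at 4 h (27.5% of all genes). Without replicate 1 of *lsm1∆* at 1 h the count at 1 h was 35, and it was 13 in a fit of only the 4 libraries compared, against 7.87% of all genes. At 2 h and again at 4 h the genes not called were *MRPL8*, *MRPL37*, *MRPL38*, *MRP2* and *RSM19*. *MRPL8* was 83.7 and 92.5 FPKM in untreated *lsm1∆* cells and a mean of 87.8 ± 3.13 FPKM (SD, n = 2) at 4 h, and *MRPL37*, for a mitochondria-specific large-subunit protein, was 145 and 150 FPKM and then 167 and 173 FPKM.

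**Figure D4:**
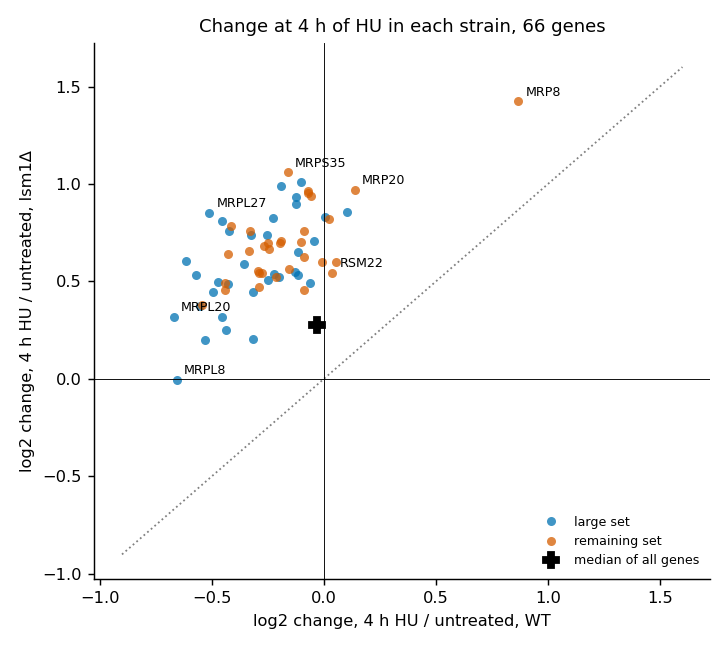
Log2 change from untreated cells to 4 h of HU in WT (horizontal) and in *lsm1∆* (vertical) for the 66 genes, with a dotted line of equal change and a cross at the median of all genes tested. Each of the 66 points lies above the line, *MRP8* is at 0.87 and 1.42, and *MRPL8* at -0.65 and -0.0041.

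The interaction of strain and HU tests whether the change from untreated cells differed between the strains. Most of the 66 genes were called for it only at 4 h. At 1 h 1 gene was called higher, *MRP21* (0.287% of all genes), at 2 h 11 genes were (1.06%), and at 4 h 63 of the 66 were (26.9%). The median differences were 0.17, 0.45 and 0.90 on the log2 scale, with -0.09, 0.06 and 0.27 over all genes. No gene was called lower by limma (0.215%, 0.287% and 3.55% of all genes). At an unadjusted limma p-value under 0.05, 18, 56 and 65 genes were higher and 1, 0 and 0 lower. The share of all genes was not counted at that threshold. The difference was above 0 for 57, 66 and 66 genes, against 2506, 4117 and 5174 of all 6977. After centring 2, 5 and 39 genes were called (0.487%, 0.487% and 5.19% of all genes). The 11 genes at 2 h were *MRPL7*, *MRPL13*, *MRPL20*, *MRPL22*, *MRPL31*, *MRPL40*, *MRP10*, *MRP21*, *MRP51*, *MRPS35* and *RSM18*. Leaving out any 1 of the 8 libraries of the comparison left 0 genes called at 1 h. At 2 h it left 1 without replicate 1 and 2 without replicate 2 of untreated WT, 4 without replicate 1 of untreated *lsm1∆*, and 0 without any other. At 4 h it left 60 to 63.

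*MRPL27*, *MRPL13* and *MRPS35* had the largest differences at 4 h. *MRPL27* was 50.3 and 54.4 FPKM in untreated WT and fell by 0.51 on the log2 scale, while in *lsm1∆* it rose by 0.85 from 85.9 and 85.0 FPKM. The difference was 1.36 ± 0.15 (SE, adjusted p = 0.00051 by limma). *MRPL13*, for a mitochondria-specific large-subunit protein, was 57.2 and 59.7 FPKM in untreated WT, 42.2 and 42.6 FPKM at 4 h, 79.3 and 79.0 FPKM in untreated *lsm1∆* and 137 and 143 FPKM at 4 h, a difference of 1.26. *MRPS35*, for a small-subunit protein found only in mitochondria, started from near equal levels in the strains. Such a start was not particular to it, since *RSM23* had a smaller untreated ratio (1.044-fold against 1.048-fold for *MRPS35*). For *MRPS35* the strains were not called different in untreated cells (log2 ratio 0.07 ± 0.06, SE, adjusted p = 0.45 by limma). They were at 39.2 and 37.3 FPKM in WT against 40.8 and 39.5 FPKM in *lsm1∆*. At 1 h they were 43.5 and 41.2 against 56.0 and 55.1 FPKM, at 2 h 45.0 and 43.0 against 65.4 and 63.1 FPKM, and at 4 h 35.7 and 32.6 against 83.0 and 86.8 FPKM. Its log2 ratio at 4 h was 1.29 and the interaction 1.22 ± 0.09 (SE, adjusted p = 9.1e-05 by limma).

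**Figure D5:**
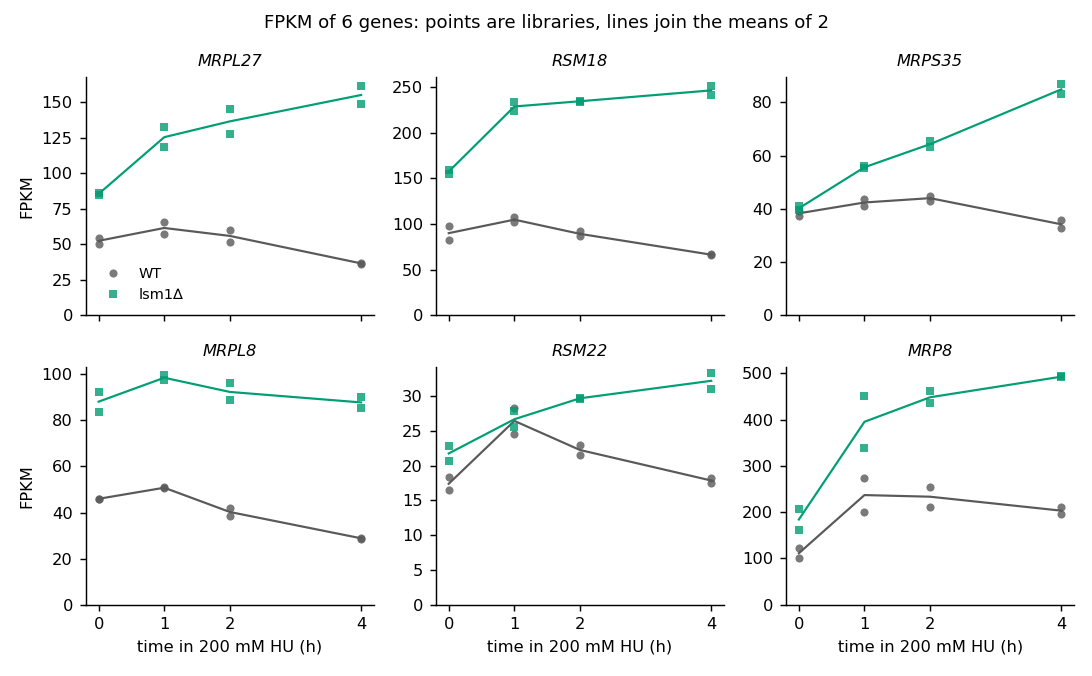
FPKM over time in HU for 6 genes, with a point for each library and lines through the means of 2 libraries, WT in grey and *lsm1∆* in green. *MRPL27* and *RSM18* part further at each time, *MRPS35* starts from 37.3 to 40.8 FPKM in all 4 untreated libraries, and *MRP8* rises in both strains.

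The 2 genes without a Puf3 motif match, *RSM22* and *MRP8*, are given in full. *RSM22* codes for a methyltransferase-like protein that is bound to the small subunit. It was 16.5 and 18.3 FPKM in untreated WT and 20.7 and 22.8 FPKM in *lsm1∆*. At 1 h the strains overlapped, with 24.6 and 28.3 FPKM in WT against 25.5 and 27.8 FPKM in *lsm1∆* (log2 ratio 0.01 ± 0.09, SE, adjusted p = 0.92 by limma). At 2 h they no longer overlapped, with 22.9 and 21.6 against 29.6 and 29.8 FPKM (1.32-fold, called). At 4 h the values were 18.2 and 17.5 against 33.4 and 31.0 FPKM, which gave the smallest log2 ratio of the 66 genes (0.81 ± 0.09, SE) and the smallest interaction (0.51, adjusted p = 0.012, or 0.44 after centring, both by limma). *MRP8* was the 1 gene of the 66 that was called higher in WT at 4 h. It went from 123 and 100.2 FPKM in untreated WT to 274 and 199.5 FPKM at 1 h, 255 and 212 FPKM at 2 h and 211 and 195 FPKM at 4 h (log2 change 0.87 ± 0.19, SE, adjusted p = 0.0038 by limma). In *lsm1∆* it went from 207 and 162 to 451 and 339, then 461 and 436 and last 491 and 494 FPKM. It was higher than in WT at each time, by 0.72, 0.74, 0.94 and 1.27 on the log2 scale. The call untreated was lost without replicate 2 of WT (0.57) or replicate 1 of *lsm1∆* (0.54), and that at 1 h without the same replicates of 1 h (0.51 and 0.53). The interaction was not called for *MRP8* at any time (0.56 at 4 h, adjusted p = 0.15 by limma).

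The other genes without a call for the interaction at 4 h were *MRPL38* and *RSM19*, both with wide spread between replicates. *MRPL38*, for the counterpart of a bacterial large-subunit protein, was 10.3 and 9.42 FPKM in untreated WT, 6.71 and 6.09 FPKM at 4 h, 14.5 and 9.38 FPKM in untreated *lsm1∆* and 15.3 and 15.6 FPKM at 4 h, and its difference was 0.93 ± 0.32 (SE, adjusted p = 0.054 by limma). *RSM19* was 168 and 126 FPKM in untreated WT and 258 and 216 FPKM in *lsm1∆*, and 119 and 119 against 322 and 336 FPKM at 4 h, with a difference of 0.76 ± 0.27 (SE, adjusted p = 0.060 by limma). *MRPL38* was called without replicate 1 of untreated *lsm1∆* (1.22), and *RSM19* without replicate 2 of untreated WT (0.97). The 3 motif matches of *RSM19* were the most of any of the 66 genes.

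The number of matches did not order the ratios. At 4 h the 51 genes with 1 match had a median log2 ratio of *lsm1∆* to WT of 1.39, and the 13 with more had 1.30. The 51 genes with a cytosine 2 bases before at least 1 match had a median of 1.33, and the 13 with matches but no such base had 1.55. Among the genes that are not of the 66, those with a match had a median of 0.58 at 4 h and those without one 0.36, so the 64 genes with a match (1.37) lay above both. In untreated cells the same medians were 0.17 and 0.11 for other genes, against 0.50 for the 64. *PUF3* itself was 35.9 and 39.1 FPKM in untreated WT and 30.4 and 33.1 FPKM in *lsm1∆*, and 37.4 and 36.1 against 36.1 and 31.8 FPKM at 4 h (log2 ratio -0.11, not called). At 1 h it was called lower in *lsm1∆* (log2 ratio -0.39). After centring it was called lower at each of the 4 times, with log2 ratios of -0.32, -0.39, -0.26 and -0.54.

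Lists of other genes for mitochondrial translation are read against all genes, of which 49.8% were called higher in *lsm1∆* at 4 h with a median log2 ratio of 0.37, or 21.9% higher and 23.5% lower after centring. The 12 mitochondrial ribosomal proteins with other names were all higher in *lsm1∆* at each of the 4 times, with a median log2 ratio of 0.57 untreated and 1.33 at 4 h (0.91 after centring, with all 12 called), and 12 of 12 had a Puf3 motif match. *MNP1*, for the counterpart of a bacterial stalk protein, went from 62.6 and 72.6 FPKM in WT to 238 and 268 FPKM in *lsm1∆* at 4 h (log2 ratio 1.89), *IMG2* had a log2 ratio of 1.76, and *YML6* had the smallest, 0.89. Of 8 translation factors 7 were higher at 4 h (median 1.05), or 6 higher and 1 lower after centring (median 0.63), with *RRF1*, the ribosome recycling factor, at 1.77 and *MEF1*, an elongation factor, at 1.49. *FMT1*, the formyltransferase of the initiator tRNA, was at -0.08 and not called, but called lower after centring (-0.50). Of 13 aminoacyl-tRNA synthetases 11 were higher (median 0.79), or 9 after centring (median 0.37), led by *MSY1* (2.84-fold) and *MST1* (log2 ratio 1.06), with *ISM1* at 0.20 and not called. Of 6 genes for ribosome assembly and rRNA modification 3 were higher (median 0.40), which is near the share and the median of all genes, and after centring 1 was higher and 1 lower (median -0.02). *MRH4* was at 0.80 and the only one still higher after centring, and *MRM2* was at 0.09 and not called, or lower after centring (-0.33). Of 14 translational activators of single mitochondrial mRNAs and related proteins 8 were higher (median 0.51), also near the share of all genes, and after centring 5 were higher and 3 lower (median 0.08). *MAM33* was at 1.71 and *CBP3* at 1.55, and *PET122* at -0.19 was not called, or lower after centring (-0.62). In untreated cells 2, 2, 0 and 3 genes of these last 4 lists were higher and 2 translational activators were lower, where 22.2% of all genes were called higher and 6.32% lower, so the counts of higher genes lay near or below the share of all genes. A motif match was found for 6 of the 8 translation factors, all 13 synthetases, 4 of the 6 assembly genes and 10 of the 14 activators. *VAR1*, the ribosomal protein gene of the mitochondrial genome, was low in all libraries and went from 0.875 and 2.58 FPKM in WT at 4 h to 6.21 and 4.52 FPKM in *lsm1∆* (log2 ratio 1.28). Its interaction at 4 h was not called.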

How the data were processed

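Total RNA was depleted of rRNA and sequenced after a TruSeq v2 preparation that does not keep strand. The authors aligned reads to sacCer3 with TopHat2 and estimated abundance with Cufflinks, and they deposited the FPKM of 7126 genes for each library. The paper states Cuffdiff for differential expression, and none of its output was used here. The 46 genes with a failed estimate in some library were left out, and a gene was tested if it reached 1 FPKM in 2 or more libraries (6977 genes).

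The values were analysed as log2(FPKM + 1), so folds of low genes are understated. One limma fit of all 16 libraries (R 4.3.3, limma 3.58.1, eBayes with trend, 8 residual and 1.85 prior degrees of freedom) had a mean for each condition. Contrasts were *lsm1∆* against WT at each time, HU against untreated in each strain, and their interaction, each with Benjamini-Hochberg adjustment over all genes. Centred values are log2 values minus the library's median over tested genes. The test code was checked on simulated data with known changes. Relative depth came from whole-read steps of low genes, and intervals from counts are not given because no read totals were used.

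Motif matches were read from the R64 reference, on which all 66 genes have the deposited position, for 5904 genes with an annotated coding end. Scripts ran in Python 3.11.15 (pandas 2.3.3, numpy 2.4.6, matplotlib 3.10.9, scipy 1.17.1).

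The genes and the lists were chosen with earlier results of these data known. Genes named are, in each set, the 3 highest and 2 lowest in mean level, the 3 largest and 3 smallest strain ratios at 4 h, the 3 largest falls and 2 largest rises of WT at 4 h, over both sets the 3 largest and 2 smallest interactions at 4 h, and up to 5 exceptions to a call shared by the rest. They include genes whose known subunit goes against their set, genes that overlap another, *LSM1*, *PUF3* and *VAR1*, and the 2 largest and the smallest ratio at 4 h of each other list. The genes listed as called or not called at a time, *MRPS8* untreated, *MRPL3* and the 3 matches of *RSM19* were chosen after their values were seen. The alternatives were centring, a pseudocount of 0.1, no filter, a minimum of 5 FPKM in each condition's mean, a threshold of 0.01, a block for the replicate number, a fit of the compared libraries alone, and leaving out every library in turn. Leaving out *MRP8* and the 6 overlapping genes was added after the data had been seen.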

Additional observations from a re-analysis of the deposited data

Results flagged for a closer look

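The results below are those in which the change under HU differed between the strains by the interaction term of limma. The number of the 66 genes called higher was 1 at 1 h (0.287% of all genes), 11 at 2 h (1.06%) and 63 at 4 h (26.9%). After centring these counts were 2, 5 and 39 (0.487%, 0.487% and 5.19% of all genes). The first 2 counts depended on single libraries. With 1 library left out they were 0 at 1 h and 0 to 4 at 2 h. Of the genes whose difference at 4 h is given, *MRPL27* had 1.36, *MRPL13* 1.26, *MRPS35* 1.22, *MRPL37* 0.52 and *RSM22* 0.51 on the log2 scale. After centring, *MRPL37* (0.18) and *RSM22* (0.17) were not called, and the other 3 were. With 2 libraries a condition, single libraries could not be tested against the others of their group.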

How the results depend on the processing

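The 66 genes called higher in *lsm1∆* at 2 h and 4 h were 66 in each fit that left out a library, in the fit of only the libraries compared and with the block, and the count with a Puf3 motif, 64 genes, was 59 in the shorter window and 65 on either strand. Of all genes, 28.3% and 50.4% were called higher at 2 h and 4 h with only the libraries compared, and 33.5% and 51.3% with the block. After centring, 3 genes were higher and 5 lower in WT at 1 h (14.6% and 17.6% of all genes). At 2 h the counts were 1 and 14 (18.3% and 20.5%). In *lsm1∆* 30, 29 and 39 were higher at 1, 2 and 4 h (13.9%, 18.9% and 23.1%). For the interaction 2, 5 and 39 were higher (0.487%, 0.487% and 5.19%). *MRPS35* untreated was at -0.0205 after centring. With only the libraries compared, where fewer residual degrees of freedom were left, the counts for the strains were 28 untreated and 29 at 1 h (7.77% and 4.47% of all genes). In WT 1 was higher at 1 h (11.7% of all genes), and 2 were higher (21.3%) and 0 lower (667 of 6977 genes) at 2 h. In *lsm1∆* 13 were higher at 1 h (7.87%), and 0 were called for the interaction at 1 h and at 2 h (0.043% and 0.0717% of all genes called higher). At an adjusted p-value under 0.01, the counts were 13 higher in WT at 1 h, 2 higher and 0 lower at 2 h, 19 lower at 4 h, and 0 for the interaction at 1 h and at 2 h. The share of all genes was not counted at this threshold or with a library left out. The count lower in WT at 2 h was 2 with a pseudocount of 0.1 (826 of 6977 genes), with no filter (831 of 7060) and with the filter of 5 FPKM (822 of 6199). Without *MRP8* and the overlapping genes, 0 were higher in WT at 4 h. The cause of these differences was otherwise not tested.

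Leaving out each library in turn gave 18 to 23 higher in WT at 1 h, 2 to 7 higher and 0 to 2 lower at 2 h, 35 to 49 higher in *lsm1∆* at 1 h, and 0 at 1 h and 0 to 4 at 2 h for the interaction. The log2 change of *MRPL16* in WT at 4 h was -0.0457 to 0.0532, and the log2 ratio of *RSM22* at 1 h was -0.0845 to 0.1135. The replicate numbers were not taken to pair the libraries. The differences between replicates 1 and 2 correlated over 0.1 in 8 of the 28 pairs of conditions over all genes (-0.21 to 0.23) and in 13 of 28 over the 66 genes (-0.16 to 0.38). With the replicate block, 18 genes were called for the interaction at 2 h. The share of all genes called higher was then 2.16%, against 1.06% in the main fit. Read totals were not used, and 2 libraries a condition limit every standard error.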
